A study of Homo sapiens with 2 samples.

Results

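The mRNAs described here encode 10 RNA-binding proteins known as partners of IMP1, and their levels were taken from RNA that came down with an IMP1 antibody or with normal IgG in lysates of T47D cells. IMP1 is an RNA-binding protein of the IGF2BP family, and T47D is a line of luminal breast cancer cells, here labelled wild type. In this assay, RNA immunoprecipitation, the RNA that remains on antibody-coated beads after washing is extracted, and no input RNA was analysed here. The members are the paralogue IGF2BP2 together with ELAVL1, YBX1, SYNCRIP, DHX9, STAU1, PABPC1, PABPC4, FMR1 and FXR1, chosen by gene name. All 10 were found among 18781 genes, each in 1 row. One antibody precipitate and one IgG precipitate were sequenced, so there are 2 libraries, 1 per group. No value has a replicate error and no difference could be tested.

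IMP1 travels in ribonucleoprotein granules that hold untranslated mRNAs, and it is best known for carrying beta-actin mRNA to the leading edge of moving cells. In such granules it meets proteins that hold the poly(A) tail, stabilise messages, unwind RNA or recognise double-stranded stretches, and many of these contacts depend on RNA. The measurements concern the mRNAs that encode these proteins and not the proteins, so a partner protein in an IMP1 granule does not require that its own mRNA lies in the same granule.

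Levels are FPKM, fragments scaled by transcript length and library size. The depth behind each value is unknown, because counts were not used here. The members were compared as the log2 ratio of FPKM + 0.1, IMP1 over IgG, and called when at least 2-fold apart. This scale understates differences of genes with low values. The summed FPKM was 353885 with IMP1 and 1298363 with IgG, so the direction of a ratio depends on scale. Multiplying the IMP1 values to equalise the sums without the 50 highest genes shifts all log2 ratios up by 0.57, equalising the median gene by 0.79, and equalising the sums over all genes by 1.88, in each case before the pseudocount is added. Among the 6909 genes that reached 1 FPKM in each library, called expressed genes below, the median log2 ratio was -0.78 and the middle 50% lay between -1.77 and 0.22.

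The labelled cell type was checked against its markers. ESR1, the estrogen receptor, had 9.60 FPKM with IMP1 and 9.04 with IgG, and GATA3 had 53.7 and 21.6 FPKM. Of 12 luminal markers 8 were at least 2-fold higher with IMP1, with summed levels of 1255 and 547 FPKM, and TFF1 and TFF3 were listed at 0 with IgG. Of 12 mesenchymal markers 11 were at least 2-fold lower with IMP1, with summed levels of 3.38 against 230 FPKM. COL1A2, SPARC, LUM, DCN, ZEB2 and PDGFRB were listed at 0 with IMP1. Of 8 blood cell markers 3 were in the table, and all 3 were at least 2-fold lower with IMP1, with a summed level of 6.79 against 327 FPKM. HLA-DRA was listed at 0 with IMP1. These counts are on the deposited scale, where 39.9% of all genes were at least 2-fold higher and 29.9% lower. With equal sums over all genes the median log2 ratio was 3.19 for the luminal, -4.48 for the mesenchymal and -3.69 for the blood cell markers. The IgG library thus held, beside luminal markers, mesenchymal and blood cell markers, the latter mostly CD74 at 305 FPKM. The label names a luminal line only, and the source of these RNAs was not tested. Whether both lysates came from the same culture is not given in the sources used here. The part of these differences in the values of the partner mRNAs was not tested. Fewer cells of a type cannot be told apart from less of its RNA per cell, or from less of that RNA left on the beads.

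On the deposited scale, no partner mRNA was higher with IMP1 by 2-fold or more, while 5 of the 10 were lower by that much. These 5 were FMR1, DHX9, YBX1, SYNCRIP and STAU1. Over all genes 29.9% were at least 2-fold lower and 39.9% at least 2-fold higher. Of the expressed genes 44.0% were lower and 11.5% higher by 2-fold or more, and of the 9 members among them 5 were lower, or 55.6%. The median log2 ratio of the 10 members was -1.01, beside 0.40 over all genes. All genes include 7270 listed at 0 with IgG and 1202 with IMP1, whereas no member was at 0 in either. Leaving out every gene with a 0 moved the 0.40 to -0.72, so the 0.40 is no fair measure for the members. The 9 expressed members had a median of -1.04, beside the -0.78 above. With only 9 members, the share of 55.6% is near that of the expressed genes and is no result about the partner mRNAs. After equalising the median gene, or the sums without the 50 highest genes, 3 members were at least 2-fold lower and 1 was higher, and after equalising the sums over all genes 1 was lower and 4 were higher.

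**Figure D1:**
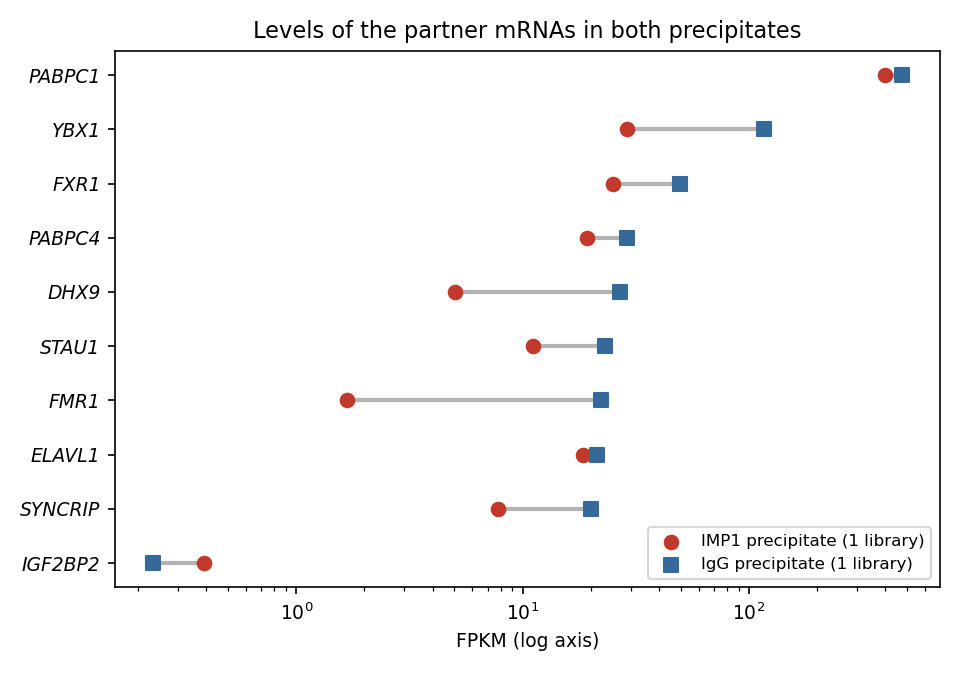
FPKM of each partner mRNA (log axis) in the IMP1 precipitate (circles) and the IgG precipitate (squares), 1 library each, with a line joining both values of a gene. PABPC1 lies far to the right in both, FMR1 has the longest line, from 22.3 FPKM with IgG to 1.67 FPKM with IMP1, and IGF2BP2 is under 1 FPKM in both.

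The order of the levels was similar in both precipitates at the top and differed in the middle. PABPC1, YBX1, FXR1 and PABPC4 took the places 1 to 4 in both libraries and IGF2BP2 took place 10. Of the 45 pairs of members, 39 had the same order with IMP1 and with IgG, and 6 were turned round. All 6 pairs lie among DHX9, STAU1, FMR1, ELAVL1 and SYNCRIP. These 5 mRNAs lay within 1.34-fold of each other with IgG, from 20.1 to 26.9 FPKM, but spanned 11.1-fold with IMP1, from 1.67 to 18.5 FPKM. Such spans do not depend on how a library is scaled. Whether neighbours in either order differ beyond the error is unknown, since each group has 1 library. The 5 were singled out after their values were seen, as the members closest together with IgG. That choice by itself favours a wider span with IMP1.

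As deposited, the mRNAs of ELAVL1 and of both poly(A)-binding proteins were the members above 1 FPKM with the least difference between the precipitates, while with the median gene equalised FXR1, PABPC4 and STAU1 were. PABPC1, which coats the poly(A) tail of cytoplasmic mRNAs and aids their translation, had 399 FPKM with IMP1 and 476 FPKM with IgG. Its gene (ENSG00000070756) lies on chromosome 8. It was the most abundant member by a wide margin and made up 77.2% of the members' summed FPKM with IMP1 and 60.7% with IgG. PABPC1 ranked 60 among all genes with IMP1 and 82 with IgG. As 1202 genes were listed at 0 with IMP1 and 7270 with IgG, ranks further down the order are not directly comparable between the libraries. Its log2 ratio was -0.25 as deposited and turned positive under the 3 rescalings, at 0.32, 0.54 and 1.62. Of the expressed genes, 64.0% had a lower ratio.

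PABPC4 (ENSG00000090621, hg19 chr1:40026488-40042462), an inducible poly(A)-binding protein, had 19.2 FPKM with IMP1 and 28.9 FPKM with IgG. Its log2 ratio was -0.59 as deposited and 0.21 with the median gene equalised, so that its direction rests on the scale. PABPC1 exceeded PABPC4 by 20.8-fold in the IMP1 library and by 16.5-fold in the IgG library, a comparison within each library. The antisense transcript PABPC4-AS1, given the same interval in the table, had 0.438 FPKM with IMP1 and was listed at 0 with IgG. The intervals printed here are those of the table's locus column, and where genes share one it may span more than the gene itself. Use of strand in the counting is not given in the sources used here, so reads of overlapping genes cannot be told apart.

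ELAVL1 (ENSG00000066044, hg19 chr19:8023463-8070543) encodes HuR, which binds AU-rich elements and stabilises the messages that carry them. It had 18.5 FPKM with IMP1 and 21.4 FPKM with IgG. The log2 ratio was -0.21 as deposited, and 0.36, 0.58 and 1.66 under the rescalings. ELAVL1 took rank 1919 with IgG and rank 1166 with IMP1. ELAVL1 was at 0.798 times the level of DHX9 with IgG and at 3.67 times that level with IMP1. This pair was not named in advance, and members with unlike log2 ratios necessarily differ in proportion between the libraries. The clone transcript CTD-3193O13.14, given the same interval, had 0.287 FPKM with IMP1 and was listed at 0 with IgG.

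**Figure D2:**
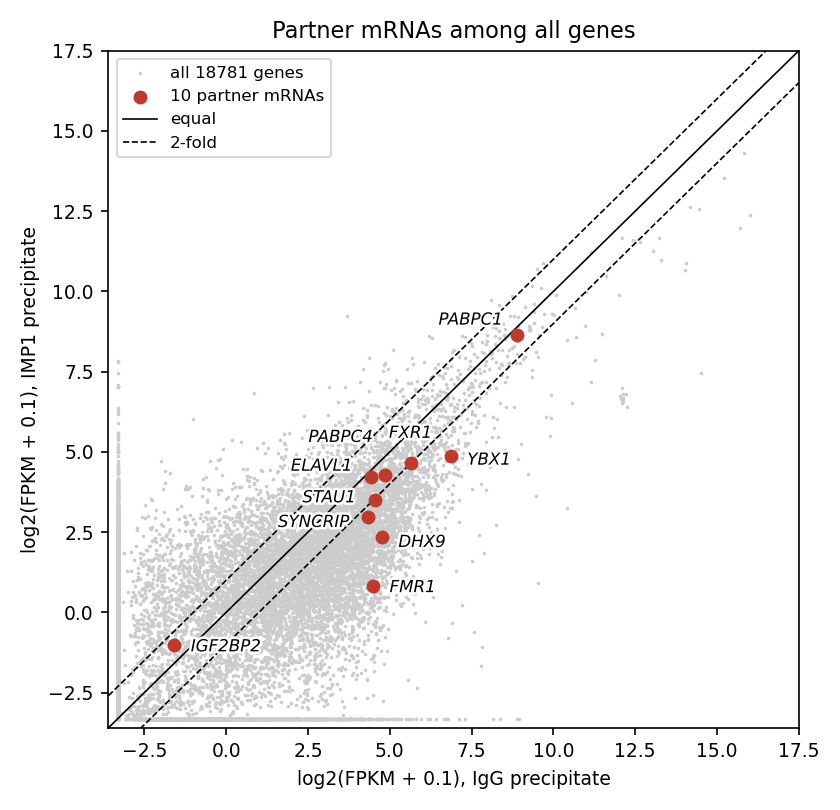
Each of 18781 genes as log2(FPKM + 0.1) in the IgG precipitate (x axis) and the IMP1 precipitate (y axis), with the 10 partner mRNAs in red. The solid line marks equal values and the dashed lines a 2-fold difference. PABPC1 and ELAVL1 lie near the solid line, and YBX1, DHX9 and FMR1 lie well under the lower dashed line.

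YBX1, DHX9 and SYNCRIP encode proteins that join IMP1 on the coding region of MYC mRNA and protect it from decay. All 3 mRNAs were at least 2-fold lower with IMP1 on the deposited scale, as were 44.0% of the expressed genes. With the sums over all genes equalised none of the 3 was, at log2 ratios of -0.13 for YBX1, -0.54 for DHX9 and 0.51 for SYNCRIP. YBX1 (ENSG00000065978, hg19 chr1:43148098-43168020), a cold-shock protein that packs mRNA into ribonucleoprotein particles, had 29.0 FPKM with IMP1 and 116 FPKM with IgG. The difference is 4.00-fold (log2 ratio -2.00) and its log2 ratio stayed below 0 under the rescalings, between -1.43 and -0.13. PABPC1 was 4.10 times as high as YBX1 with IgG and 13.8 times as high with IMP1, a pair of members with unlike log2 ratios that was not named in advance.

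DHX9 (ENSG00000135829, hg19 chr1:182808504-182856886), an RNA helicase with domains for double-stranded RNA, had 5.04 FPKM with IMP1 and 26.9 FPKM with IgG. Its log2 ratio was -2.39 as deposited and lay between -1.83 and -0.54 under the rescalings. Only 13.4% of the expressed genes had a lower ratio, against 20.3% for YBX1. DHX9 ranked 1505 with IgG and 3928 with IMP1.

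SYNCRIP (ENSG00000135316, hg19 chr6:86215214-86353510), an hnRNP protein also called hnRNP Q, had 7.81 FPKM with IMP1 and 20.1 FPKM with IgG (log2 ratio -1.35). The log2 ratio became 0.51 after equalising the sums over all genes. The table gives the same interval to SNX14, which had 5.17 and 36.2 FPKM, and to the clone transcript RP11-321N4.5, which had 3.78 and 1.90 FPKM. HNRNPU, another protein of the same complex on MYC mRNA, is not a member and was looked at after its value was seen. It had 10.4 FPKM with IMP1 and 32.3 FPKM with IgG (log2 ratio -1.63).

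STAU1 (ENSG00000124214, hg19 chr20:47729878-47804904), which binds double-stranded RNA and acts in mRNA transport and decay, had 11.2 FPKM with IMP1 and 23.1 FPKM with IgG. Its log2 ratio of -1.04 was just past the 2-fold line and became 0.82 after equalising the sums over all genes. In its ratio it lay close to the middle, with 42.9% of the expressed genes below it. Its paralogue STAU2, known from neurons, had 6.85 FPKM with IMP1 and 3.84 FPKM with IgG. STAU1 was therefore 6.01 times as high as STAU2 with IgG and 1.63 times as high with IMP1.

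Between the libraries, the proportion of FXR1 to FMR1, of the fragile X family, differed by 6.77-fold, and that of PABPC1 to PABPC4 by 1.26-fold. FMR1 and FXR1 encode KH domain proteins that associate with polysomes and with each other. FMR1 (ENSG00000102081, hg19 chrX:146993469-147032645), a translational repressor, had 1.67 FPKM with IMP1 and 22.3 FPKM with IgG. This 12.6-fold difference (log2 ratio -3.66) was the largest among the members, and FMR1 was the only one at least 2-fold lower under each of the 3 rescalings, between -3.12 and -1.85. Only 2.59% of the expressed genes had a lower ratio. FMR1 ranked 1830 with IgG and 7942 with IMP1.

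FXR1 (ENSG00000114416, hg19 chr3:180319918-180700541) had 25.2 FPKM with IMP1 and 49.6 FPKM with IgG. Its log2 ratio of -0.98 was just inside the 2-fold line, became 0.90 after equalising the sums over all genes, and had 44.5% of the expressed genes below it. FXR1 exceeded FMR1 by 2.23-fold with IgG and by 15.1-fold with IMP1. Within the libraries the 2 relatives thus differed in proportion by 6.77-fold, which no scaling of a library can move. TTC14 has the same interval as FXR1 in the table and had 0.729 FPKM with IMP1 and 23.5 FPKM with IgG. FXR2, the remaining gene of the family, had 0.920 FPKM with IMP1 and was listed at 0 with IgG.

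IGF2BP2 (ENSG00000073792, hg19 chr3:185361527-185542844), the relative of IMP1 with the same arrangement of RRM and KH domains, was low in both precipitates. It had 0.393 FPKM with IMP1 and 0.232 FPKM with IgG and was the one member under 1 FPKM in both. Its log2 ratio of 0.57 was the only one above 0 as deposited. With values this low the ratio follows the pseudocount, and it was 0.18 with a pseudocount of 1 and 0.74 with 0.01. IGF2BP2 ranked 12582 with IMP1 and 10356 with IgG, so its place was lower with IMP1 although its FPKM was higher there. Ranks this low are not comparable between the libraries, which differ in the number of genes listed at 0.

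**Figure D3:**
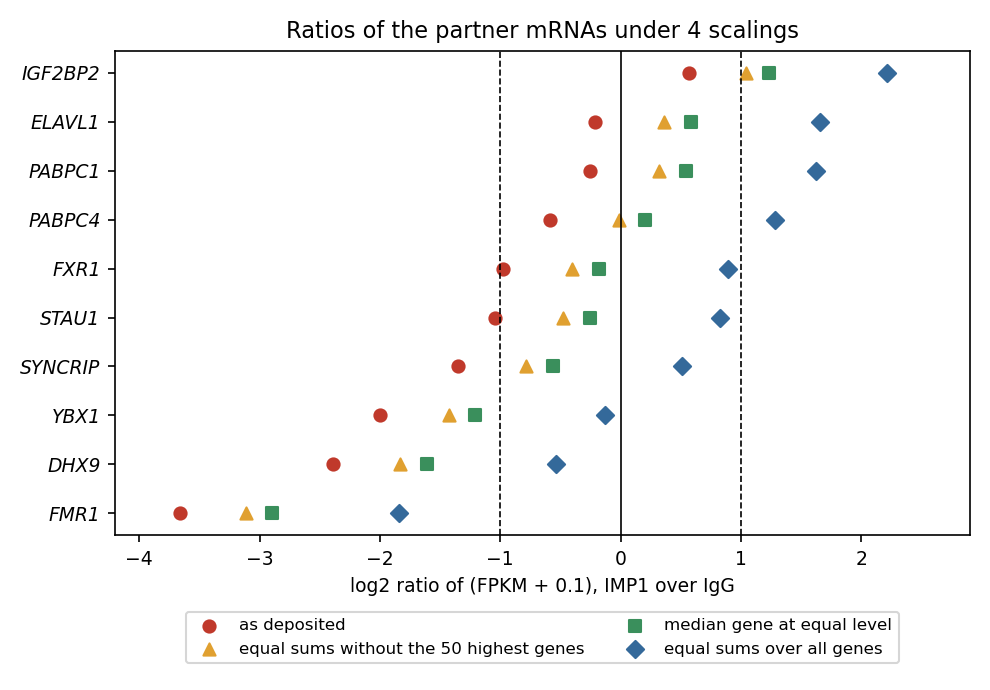
The log2 ratio of (FPKM + 0.1), IMP1 over IgG, of each partner mRNA as deposited and after 3 rescalings of the IMP1 library, with dashed lines at 2-fold. FMR1, DHX9 and YBX1 lie below 0 under all 4 scalings, ELAVL1 and PABPC1 are below 0 as deposited only, and the order of the genes is the same in each.

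By type of RNA-binding domain, a grouping made after the values were seen, each member was placed in 1 group. IGF2BP2 has both RRM and KH domains and was placed with the KH domain members. The 4 members placed under RRM domains were ELAVL1, PABPC1, PABPC4 and SYNCRIP. Of these 1 was at least 2-fold lower with IMP1 as deposited, and the median of the 4 was -0.42. The share of expressed genes lower was 44.0%. Both members that bind double-stranded RNA, DHX9 and STAU1, were at least 2-fold lower, though STAU1 was higher with equal sums over all genes. Of the 3 KH domain members 1 was, which was FMR1. Groups of this size describe the members only.

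Most relatives from the same gene families were low. Of 17 such genes 14 were in the table, and IGF2BP3, ELAVL3 and PABPC5 were not analysed here. As deposited, 6 of the 14, or 42.9%, were at least 2-fold higher with IMP1, near the 39.9% over all genes, and 2 were lower. Of the 6, 4 were listed at 0 with IgG, and 8 of the 14 were under 1 FPKM in both libraries. Those at 0 with IgG were ELAVL2, ELAVL4, DHX30, DHX57, PABPC4L and FXR2, of which DHX30, a helicase of mitochondrial ribosome assembly, was the highest with 2.55 FPKM with IMP1. ELAVL2 and ELAVL4 belong to the neuronal Hu proteins and had 0.280 and 0.0307 FPKM. DHX57 had 0.265 FPKM and PABPC4L had 0.0586 FPKM.

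Only 5 relatives were among the expressed genes, of which 2 were at least 2-fold lower, with a median log2 ratio of -0.95. HNRNPR, the paralogue of SYNCRIP, had 6.83 FPKM with IMP1 and 25.1 FPKM with IgG, and DHX36, a helicase that resolves G-quadruplexes, had 2.83 and 13.5 FPKM. YBX3 had 7.53 and 14.6 FPKM, so YBX1 was 7.95 times as high as YBX3 with IgG and 3.85 times with IMP1. YBX2, a Y-box protein of germ cells, went the other way with 4.42 FPKM with IMP1 and 1.57 FPKM with IgG. The fifth was STAU2, given above. DHX29 had 0.927 and 0.415 FPKM, PABPC1L had 0.547 and 0.134 FPKM, and PABPC3, a retrocopy of PABPC1, had 0.169 and 0.159 FPKM.

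Pseudogenes can take reads from a parent mRNA, and 5 rows carry the name of one. YBX1P1 had 1.08 FPKM with IMP1 and 3.72 FPKM with IgG, and YBX1P10 was listed at 0 with IMP1 and had 1.20 FPKM with IgG. PABPC1P1, PABPC1P3 and PABPC1P4 had 0.203, 0.372 and 0.225 FPKM with IMP1 and were listed at 0 with IgG. These levels are small beside those of YBX1 and PABPC1, but how reads were shared between near-identical copies is not given in the sources used here, so the values of both families are uncertain to that extent.

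Beyond the members, 50 mRNAs of other granule, silencing and m6A proteins were compared as a reference for the same kind of protein. As deposited, 28 were at least 2-fold lower with IMP1 and 7 higher, with a median log2 ratio of -1.21, which became 0.66 after equalising the sums over all genes. Of the 42 expressed ones 26 were lower, or 61.9%, and their median was -1.39, beside 44.0% and -0.78 over all expressed genes. The partner mRNAs, at 55.6% and -1.04, lay between, but with only 9 expressed members this is no result about them. All 4 RNA helicases of this list, DDX1, DDX3X, DDX5 and DDX6, were at least 2-fold lower as deposited. So were 7 of the 8 stress granule mRNAs. Both groups were singled out after their values were seen, as those with the highest shares lower in the wider list. With equal sums over all genes their medians were 0.17 and 0.39. Among the relatives of DHX9, DHX36 was also lower and DHX29 was within 2-fold. DHX30 and DHX57, both listed at 0 with IgG, were higher. The largest difference among the stress granule mRNAs was that of ATXN2, whose protein binds PABPC1, with 2.52 FPKM with IMP1 and 31.8 FPKM with IgG.

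**Figure D4:**
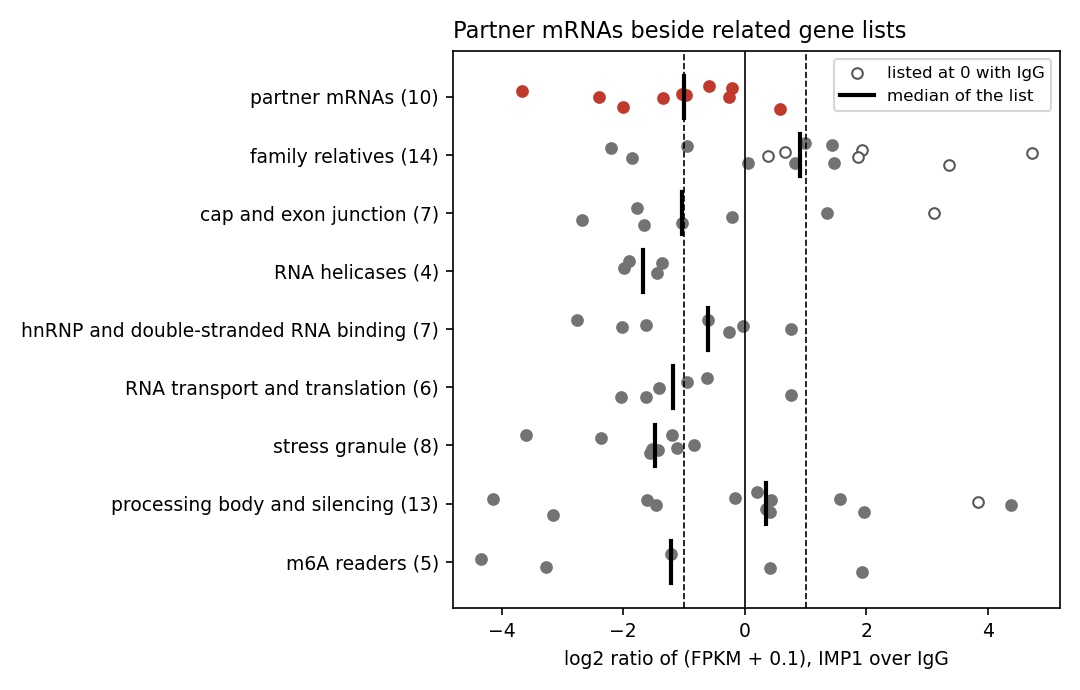
The log2 ratio of (FPKM + 0.1), IMP1 over IgG as deposited, for the 10 partner mRNAs (red), 14 family relatives and 7 groups of the wider list (grey), with open circles for genes listed at 0 with IgG, bars at the median and dashed lines at 2-fold. The medians are -1.01 for the partner mRNAs, 0.91 for the family relatives, 0.35 for the processing body and silencing group, and below 0 for the other groups.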

How the data were processed

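RNA from an IMP1 antibody precipitate and from an IgG precipitate of T47D cells was sequenced by a service company, with 1 library each. The authors deposited FPKM values per gene. The build is hg19 per the labels. The aligner, the FPKM software, the annotation and any use of strand are not given in the sources used here. Values of 1e-05 were read as 0, and 1 was added to each start of the locus column, which counts from 0. The columns with the authors' own fold changes, p-values, q-values and direction, and 3 tables of genes picked by them, were not used.

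The log2 ratio of (FPKM + 0.1), IMP1 over IgG, was computed for 18781 genes, with 2-fold as the call. With 1 library per group no test was run. A count test does not apply to FPKM. The members and gene lists were chosen with earlier results of these data known. Of the markers listed, 1 is not reported here. Older symbols were matched through Ensembl identifiers. All members and family relatives are named, and of the wider list the 3 largest and 3 smallest ratios among genes reaching 1 FPKM in each library and genes listed at 0. Also named are pseudogene, antisense and overlapping rows, and the 3 protein-coding genes nearest to the members with the largest and smallest ratio. Python 3.11.15, numpy 2.4.6, pandas 2.3.3 and matplotlib 3.10.9 were used, and the counting was tested on simulated data.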

Additional observations from a re-analysis of the deposited data

How the results depend on the processing

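No paired analysis was possible because each group has 1 library, which also leaves no replicate to leave out. The number of partner mRNAs at least 2-fold lower was 5 as deposited and 4 with a pseudocount of 1. At a threshold of 4-fold the number lower was 2, and at 1.5-fold it was 7. It was 3 with the median gene equalised or with the sums equalised without the highest genes, and 1 with the sums equalised over all genes. The number at least 2-fold higher, 0 as deposited, was 1, 1 and 4 under these rescalings. Their median log2 ratio of -1.01 became -0.22 with the median gene equalised and 0.86 with equal sums over all genes, and under the latter the log2 ratio of SYNCRIP was 0.51 and that of STAU1 was 0.82. Of 69 values of single members under the alternatives, 49 moved by less than 1.5-fold, and the other 20 came under rescalings. The 49 include values under the FPKM filters, which cannot change the ratio of a gene, so this count does not measure stability. They also include the values with the sums equalised without the highest genes, a log2 shift of 0.57, just under 1.5-fold. Under that shift the log2 ratios of ELAVL1 and PABPC1 turned positive, at 0.36 and 0.32.

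Of the family relatives 6 were higher as deposited, 2 with a pseudocount of 1, 2 above 0 in both libraries, 2 at 4-fold and 11 with equal sums over all genes. The number lower, 2, was 1 at 4-fold and 0 with equal sums. Their median of 0.91 was 1.72 with a pseudocount of 0.01, 1.67 with the median gene equalised and 2.72 with equal sums.

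Of the wider list 7 were higher as deposited, 13 with the median gene equalised, 21 with equal sums and 3 at 4-fold. The number lower, 28, was 12 with the median gene equalised, 17 without the highest genes, 5 with equal sums and 10 at 4-fold. Their median of -1.21 was -0.42 with the median gene equalised and 0.66 with equal sums.

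Over all genes 7488 were higher as deposited, 3276 with a pseudocount of 1, 4867 with at least 0.5 FPKM in a library, 1807 above 0 in both, 11962 with equal sums and 4901 at 4-fold. The number lower, 5610, was 2433 with equal sums and 3249 at 4-fold. Their median of 0.40 was -0.21 with the 0.5 FPKM filter, -0.72 above 0 in both and 1.87 with equal sums. Each change follows from the filter, threshold, pseudocount or scale of the alternative itself. Without counts, the limit set by depth is unknown, and values under 1 FPKM are the least certain.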

Other observations

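Among the mRNAs of the wider list, the processing body and silencing group was the most mixed. As deposited, 4 of its 13 mRNAs were at least 2-fold higher with IMP1 and 4 were lower, or 30.8% each. Over all genes 39.9% were higher and 29.9% lower. Of its 7 expressed mRNAs 3 were lower, or 42.9%, beside 44.0% of the expressed genes, so the counts are no result about the group. DCP2, named after its value was seen, had the largest log2 ratio of the group, 4.38, with 12.4 FPKM with IMP1 and 0.498 FPKM with IgG. XRN1, the cytoplasmic exonuclease that degrades mRNA from its 5′ end, had 3.35 FPKM with IMP1 and 61.1 FPKM with IgG (log2 ratio -4.15). AGO2, the slicing Argonaute protein, had 5.59 and 1.36 FPKM (log2 ratio 1.96), and EDC3, an enhancer of decapping, had 6.26 and 2.04 FPKM. TNRC6C, a partner of Argonaute proteins, had 1.33 FPKM with IMP1 and was listed at 0 with IgG, as was NCBP1, a subunit of the nuclear cap-binding complex, which had 0.765 FPKM with IMP1.

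Of the 5 m6A readers 3 were at least 2-fold lower with IMP1 as deposited and 1 was higher, beside 29.9% and 39.9% over all genes. Of the 4 expressed readers 2 were lower, or 50%, near the 44.0% of the expressed genes. These counts are no result about the readers. YTHDC2, named here after its value was seen, had the largest difference, with 0.620 FPKM with IMP1 and 14.5 FPKM with IgG. YTHDF2, which sends methylated mRNA to decay, had 2.77 FPKM with IMP1 and 27.5 FPKM with IgG, while its nuclear relative YTHDC1 had 4.40 and 1.09 FPKM. The log2 ratios of YTHDF2 and YTHDC1 were -3.27 and 1.92.

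The protein-coding genes nearest to FMR1 on both log2(FPKM + 0.1) values were UGDH, POLI and ZMYM1, at distances of 0.05, 0.07 and 0.08 in log2 units over 2 libraries. Those nearest to IGF2BP2 were ATXN7L1, NEDD9 and ZRANB3, at 0.10, 0.14 and 0.20. With only 2 libraries such nearness means alike levels in both.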
